A study of Mus musculus with 5 samples.

Results

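The signal transducers and activators of transcription (STATs) and the interferon regulatory factors (IRFs) are the transcription factors that carry interferon and cytokine signals to the genome. Of the 24419 gene rows of the deposited table, 9 were taken by symbol, namely Stat2, Stat3, Stat6, Irf1, Irf2, Irf5, Irf7, Irf8 and Irf9, and all 9 were abundant enough to be tested among the 10088 genes that averaged 1 CPM or more. CPM scales the count of a gene to the total of its library. The samples were bone marrow-derived macrophages (BMMs) of C57BL/6 mice, grown for 5 days in M-CSF at 50 ng/ml and activated with LPS at 100 ng/ml. All 5 samples therefore carried M-CSF and LPS. The controls then received PBS (n = 2), and the treated cells received recombinant semaphorin 3G (Sema3G) at 100 ng/ml (n = 3), in both cases for 18 h. The recombinant protein was Fc-tagged and was made in 293T cells, a human kidney line. Labels number the replicates but do not say whether they were separate cultures or animals, so that p-values measure the spread between these samples only.

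STAT proteins wait in the cytoplasm and are phosphorylated by JAK kinases when a cytokine binds its receptor, after which they enter the nucleus as dimers. Type I interferon, which macrophages make after LPS, activates a complex called ISGF3, which contains STAT2 and IRF9 and whose targets are antiviral genes. STAT3 carries the signals of IL-6 and IL-10 and is needed for the anti-inflammatory action of IL-10, and STAT6 carries those of IL-4 and IL-13. IRF proteins share a DNA-binding domain that reads GAAA repeats. IRF1 is an activator induced by interferon-γ, IRF2 occupies the same element and often opposes it, IRF5 drives inflammatory cytokine genes downstream of Toll-like receptors, IRF7 amplifies type I interferon, and IRF8 is a lineage factor of monocytes and macrophages.

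Promoter sequences were searched for the letters that these proteins read, since several STAT and IRF genes are known to be regulated by their own family. The window was the 250 bases before each RefSeq gene start (GRCm38.p6), of which the 9 genes have 12. The interferon element was searched as GAAANNGAA on both strands, and the STAT element as TTCNNNGAA, which reads the same on both strands. The 4 genes with a match are shown as the stretch around it, on the plus strand, with the matching letters in capitals.
Irf1, chr11:53769904-53769952: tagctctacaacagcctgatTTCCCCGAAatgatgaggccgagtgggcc
Irf2, chr8:46739495-46739549: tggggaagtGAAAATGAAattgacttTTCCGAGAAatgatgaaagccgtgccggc
Irf8, chr8:120736167-120736233: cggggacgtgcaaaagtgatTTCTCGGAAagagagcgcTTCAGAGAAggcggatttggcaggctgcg
Stat2, chr10:128270257-128270305: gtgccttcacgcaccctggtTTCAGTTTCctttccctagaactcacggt

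The STAT element was present once before Irf1, once before Irf2 and 2 times before Irf8, in 3 of 12 windows, against 7.02% of all 32851 windows of this length. The interferon element was present before Irf2, and on the opposite strand before Stat2, in 2 of 12 windows against 7.13% of all. The stretch before Irf2 also lies in an exon of Gm16675 in GENCODE M21, and the other 3 stretches lie in no annotated exon. These matches describe letters and were not tested as binding sites, and genes without a match may hold such letters outside the window.

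The libraries were read from the 3′ end of each RNA, and each molecule carried a unique molecular identifier (UMI), so that a gene's CPM does not grow with its length. Library totals lay between 1798469 and 2215855 UMIs, and 3 UMIs corresponded to between 1.35 and 1.67 CPM. The ribosomal RNA precursor Rn45s took 1.01% to 3.19% of the total with PBS and 6.31% to 7.88% with Sema3G, and the listed genes took 75.6% to 77.6% with PBS and 65.9% to 71.3% with Sema3G. These shares enter the CPM, and the median log2 fold change of all tested genes was -0.22. The changes of the 9 genes are therefore also given relative to this median. Of 7 macrophage markers, Csf1r and Lyz2 were at 3451 and 2527 CPM or more in every library, and Mertk was at or near 0, at most 2.78 CPM. Of the 6 dendritic cell, 7 lymphoid and 4 mast cell and basophil markers, 4, 6 and 3 were at 0 in all libraries, and their summed levels were at most 2.78 CPM in any library. The neutrophil markers summed to between 103 and 167 CPM, nearly all of it S100a8, and the stromal markers to between 9.10 and 25.8 CPM.

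None of the 9 genes passed an adjusted p of 0.05 between Sema3G and PBS in limma on log2(CPM + 1), where 1.59% of all tested genes were called higher and 0.218% lower. On UMI counts recovered from the CPM, edgeR's quasi-likelihood test and DESeq2 called 0 of the 9 as well, against 3.01% and 3.1% of the genes each gave an adjusted p. Without adjustment, limma gave a p under 0.05 to 2 of the 9, Irf1 and Irf5, and to 21.1% of all tested genes. In edgeR that level was met by Irf2 alone of the 9 (unadjusted p = 0.0204, beside 0.0767 for Irf1 and 0.276 for Irf5), and by 16.2% of all. Over all tested genes, 689 higher and 1436 lower met that unadjusted level in limma. The median log2 fold change of the 9 genes was -0.14, and 5 of them lay above and 4 below the median of all genes.

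**Figure D1:**
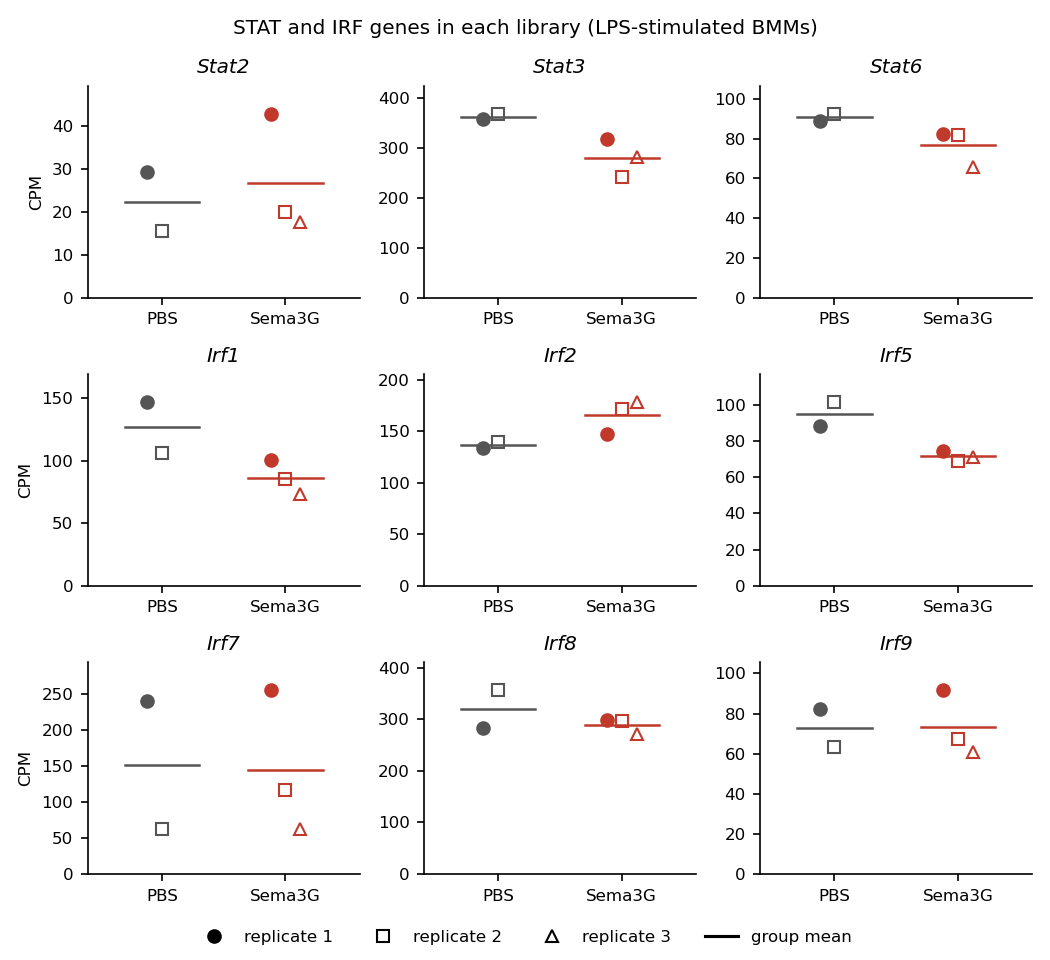
CPM of each of the 9 STAT and IRF genes (vertical axes, from 0) in the 2 PBS and 3 Sema3G libraries, with the replicate number as the symbol and the group mean as a line. Irf7, Stat2 and Irf9 spread within each group with replicate 1 at the top, Irf1, Irf5, Stat3 and Stat6 sit lower in all 3 Sema3G libraries, and Irf2 sits higher.

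The lowest log2 fold change of the 9 was that of Irf1 (chromosome 11, 53770014 to 53778374, plus strand), whose promoter holds the STAT element shown above. It was at 147 and 107 CPM in PBS replicates 1 and 2, and at 100.6, 85.3 and 73.3 CPM in Sema3G replicates 1, 2 and 3. The groups did not overlap, though replicate 1 with Sema3G was close to replicate 2 with PBS. The means were 127 ± 28.8 CPM (SD, n = 2) and 86.4 ± 13.7 CPM (SD, n = 3), a log2 fold change of -0.54 (95% interval -0.98 to -0.11, standard error 0.21, limma adjusted p = 0.156), or -0.32 relative to the median of all genes. Without PBS replicate 1 it was -0.31.

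Irf2 (chromosome 8, 46739732 to 46847458, plus strand), the counterpart of Irf1 at the same DNA element, lay in the other direction. It was at 134 and 139 CPM with PBS and at 147, 171 and 178 CPM with Sema3G. Every Sema3G library lay above both PBS libraries, and the PBS libraries were nearly equal. The means were 137 ± 3.63 CPM (SD, n = 2) and 166 ± 16.2 CPM (SD, n = 3), with a log2 fold change of 0.27 (95% interval -0.11 to 0.65, standard error 0.18, limma adjusted p = 0.395), or 0.50 above the median of all genes. Of the 9 genes Irf2 lay farthest above that median.

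The ratio of Irf1 to Irf2 does not depend on the library total. It was 1.10 and 0.765 with PBS and 0.683, 0.499 and 0.411 with Sema3G, so that Irf1 RNA exceeded Irf2 RNA in PBS replicate 1 alone. The groups did not overlap, and the mean log2 ratio was -0.13 ± 0.37 (SD, n = 2) with PBS and -0.95 ± 0.37 (SD, n = 3) with Sema3G, a difference of -0.82. The exact permutation p, two-sided, was 0.2, the smallest that 2 libraries against 3 allow, or 0.5 after Benjamini-Hochberg adjustment over the 5 ratios computed.

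Irf5 (chromosome 6, 29526625 to 29541871, plus strand) was at 88.5 and 102 CPM with PBS and at 74.5, 69.0 and 71.5 CPM with Sema3G. Its 3 Sema3G libraries were tightly grouped below both PBS libraries, at 71.7 ± 2.74 CPM (SD, n = 3) against 95.1 ± 9.37 CPM (SD, n = 2). The log2 fold change was -0.40 (95% interval -0.80 to -0.00029, standard error 0.19, limma adjusted p = 0.237), or -0.18 from the median over all genes.

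Irf8 (chromosome 8, 120736358 to 120756694, plus strand), with 2 STAT elements in its promoter window, was one of the most abundant of the 9. It was at 284 and 357 CPM with PBS and at 299, 297 and 272 CPM with Sema3G. PBS replicate 2 stood above the rest and the groups overlapped, the log2 fold change being -0.14 (95% interval -0.53 to 0.25, limma adjusted p = 0.688), or 0.09 above the median of all genes, and its sign turned under other scalings of the libraries. The ratio of Irf5 to Irf8 was 0.312 and 0.285 with PBS and 0.249, 0.232 and 0.263 with Sema3G, lower in every Sema3G library, with a difference of -0.27 in the mean log2 ratio (exact two-sided permutation p = 0.2, adjusted p = 0.5 over the 5 ratios). Spi1, which encodes PU.1, the DNA partner of IRF8, differed by -0.25 on the log2 scale (limma adjusted p = 0.449, and -0.039 in edgeR).

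Stat3 (chromosome 11, 100885098 to 100939540, minus strand) had the highest mean of the 9 genes over all libraries. It was at 357 and 369 CPM with PBS and at 317, 241 and 282 CPM with Sema3G, so that the Sema3G libraries lay lower and farther apart than the PBS libraries. The means were 363 ± 8.29 CPM (SD, n = 2) and 280 ± 38.0 CPM (SD, n = 3), with a log2 fold change of -0.38 (95% interval -0.77 to 0.01, standard error 0.19, limma adjusted p = 0.251), or -0.16 relative to the median.

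Stat6 (chromosome 10, 127642986 to 127660957, plus strand) was at 89.0 and 92.6 CPM with PBS and at 82.3, 81.7 and 65.9 CPM with Sema3G. All Sema3G libraries were lower, but replicates 1 and 2 by little, and the log2 fold change of -0.25 (95% interval -0.66 to 0.16, limma adjusted p = 0.462) lay -0.024 from the median of all genes. The ratio of Stat3 to Stat6 was 4.01 and 3.98 with PBS and 3.86, 2.96 and 4.27 with Sema3G, and these groups overlapped (exact two-sided permutation p = 0.8).

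Counted together, 4 of the 9 genes, Irf1, Irf5, Stat3 and Stat6, had every Sema3G value below every PBS value, as did 26.5% of all tested genes, and Irf2 had every Sema3G value above, as did 11.9%. This count depends on the scaling. When CPM were recomputed on listed genes without Rn45s, 0 of the 9 lay below in all Sema3G libraries (10.5% of all tested genes), Irf2 still lay above in all of them (21.3%), and the other 8 overlapped. The log2 fold change was then -0.25 for Irf1, -0.11 for Irf5, -0.09 for Stat3, 0.04 for Stat6 and 0.56 for Irf2. On that scale Irf2 was at 175 and 192 CPM with PBS and at 227, 286 and 308 CPM with Sema3G. The summed level of the 3 STAT genes averaged 476 ± 1.23 CPM in PBS libraries (SD, n = 2) and 384 ± 52.3 CPM in Sema3G libraries (SD, n = 3) as deposited (exact two-sided permutation p = 0.2), and 640 and 628 CPM on the other scale. That of the 6 IRF genes was 903 ± 103 and 832 ± 127 CPM as deposited (exact two-sided permutation p = 0.4), and 1211 and 1360 CPM on the other scale. The macrophage markers Adgre1 and Csf1r were also lower in all Sema3G libraries as deposited (log2 fold changes -0.53 and -0.33, limma adjusted p = 0.192 and 0.483), while Itgam and Mertk were higher in all of them. The 7 markers summed to between 8514 and 11668 CPM with PBS and between 8211 and 8529 CPM with Sema3G, and their part in the STAT and IRF levels was not tested. A lower level in bulk RNA cannot tell fewer expressing cells from less RNA per cell.

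**Figure D2:**
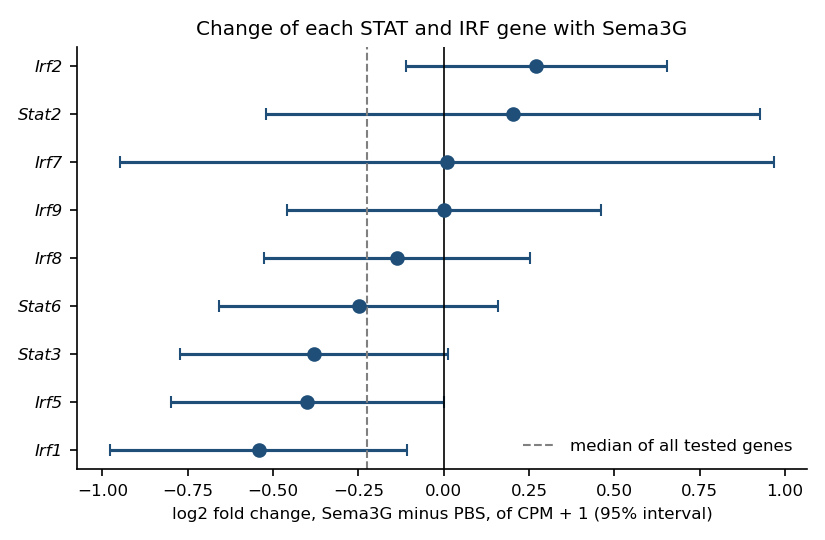
Log2 fold change of CPM + 1, Sema3G minus PBS, for each gene (horizontal axis), with 95% intervals from limma, a solid line at 0 and a dashed line at the median of all tested genes, -0.22. The interval of Irf1, -0.98 to -0.11, lies below 0 and includes the dashed line, that of Irf5 ends at -0.00029, and that of Irf7 is the widest, from -0.95 to 0.97.

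For Irf7, Stat2 and Irf9, which act in the type I interferon response, the groups overlapped, and Irf7 and Stat2 spread widely within them. Irf7 (chromosome 7, 141262706 to 141266481, minus strand) was at 241 and 62.6 CPM in PBS replicates 1 and 2, and at 256, 117 and 63.2 CPM in Sema3G replicates 1, 2 and 3. Replicate 1 was the highest of its group in both groups, and the lowest values of the groups were nearly equal. Means were 152 ± 126 CPM for PBS (SD, n = 2) and 145 ± 99.4 CPM for Sema3G (SD, n = 3). The log2 fold change was 0.01 (95% interval -0.95 to 0.97, limma adjusted p = 0.994), or 0.23 above the median of all genes. It turned with the library left out, being -0.95 without PBS replicate 2 but 0.97 without PBS replicate 1, and -0.51 without Sema3G replicate 1 but 0.49 when Sema3G replicate 3 was left out.

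Irf7 had 438 and 117 UMIs in the PBS libraries, a 3.84-fold difference in CPM (95% exact binomial interval 3.13 to 4.75, counting error only), and 460, 259 and 137 UMIs in the Sema3G libraries, 4.05-fold between the highest and the lowest (3.34 to 4.94). The residual SD of Irf7 in the fit was 1.14 on the log2 scale, larger than that of 99.3% of all tested genes. That of Irf5, by contrast, was 0.09, above only 3.98% of them.

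Stat2 (chromosome 10, 128270559 to 128292849, plus strand) and Irf9 (chromosome 14, 55603571 to 55610030, plus strand) encode subunits of ISGF3. Stat2 was at 29.1 and 15.5 CPM with PBS and at 42.8, 19.9 and 17.5 CPM with Sema3G, from 53, 29, 77, 44 and 38 UMIs. Again replicate 1 was the highest of each group, and the groups overlapped. The log2 fold change was 0.20 (95% interval -0.52 to 0.93, standard error 0.34, limma adjusted p = 0.757), or 0.43 above the median of all genes, with a residual SD of 0.65, above that of 90.2% of tested genes. The fold change was -0.23 without PBS replicate 2, -0.18 without Sema3G replicate 1, 0.44 without Sema3G replicate 3 and 0.64 without PBS replicate 1.

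Irf9 was at 82.4 and 63.2 CPM with PBS and at 91.7, 67.2 and 60.8 CPM with Sema3G, and repeated this order on a smaller scale, with a residual SD of 0.29, above that of 47.2% of tested genes. Its log2 fold change was -0.00018 (95% interval -0.46 to 0.46, limma adjusted p = 0.9996), or 0.22 above the median of all genes, and its sign turned under other scalings. Irf9 shares its span with Rnf31, annotated on the same strand, so its counts are uncertain. The ratio of Irf9 to Stat2 was 2.83 and 4.07 with PBS and 2.14, 3.39 and 3.47 with Sema3G, and that of Irf7 to Irf9 was 2.92 and 0.992 with PBS and 2.79, 1.74 and 1.04 with Sema3G. Neither ratio separated the groups (exact two-sided permutation p = 0.8 and p = 1), and in both groups replicate 1 had the lowest Irf9 to Stat2 ratio and the highest Irf7 to Irf9 ratio.

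As a sum, the antiviral targets of ISGF3 also had this order. Their summed level over 21 genes was 548 and 133 CPM in PBS replicates 1 and 2, and 471, 186 and 155 CPM in the Sema3G libraries. Of the 20 tested targets, 18 (90%) were higher in replicate 1 than in replicate 2 in both groups, against 40.1% of all tested genes and 4 of the 9 STAT and IRF genes (Irf1, Irf7, Irf9 and Stat2). Sema3G replicate 2 was above Sema3G replicate 3 for 13 of the 20 targets, and for 5307 of the 10088 tested genes. The median difference of replicate 1 over replicate 2 was 1.599 on the log2 scale with PBS and 1.03 with Sema3G for the targets, against 0.12 and 0.13 for all tested genes. For Irf7 it was 1.93 and 1.12, for Stat2 0.87 and 1.07, for Irf9 0.38 and 0.44, and for Irf1 0.46 and 0.24. This comparison of replicates was chosen after the values were seen and no test was made of it. The labels do not say what replicates with the same number share.

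**Figure D3:**
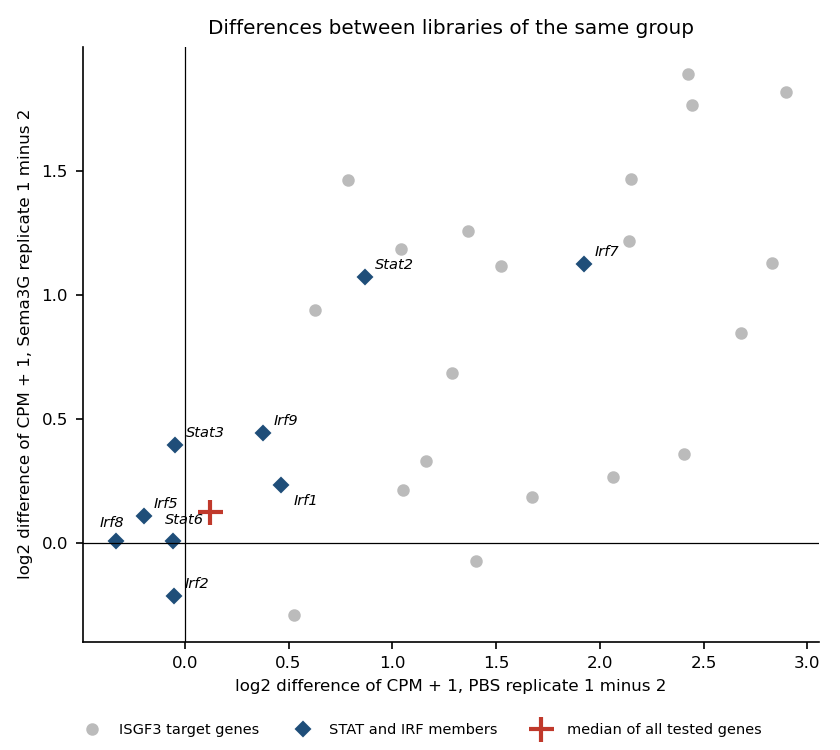
Difference of log2(CPM + 1) between replicates 1 and 2 of the PBS group (horizontal axis) and of the Sema3G group (vertical axis), for the 9 STAT and IRF genes (diamonds), the 20 tested ISGF3 target genes (grey) and the median of all tested genes (cross). Irf7 and Stat2 lie among the targets, with Irf7 at 1.93 and 1.12, while Irf2, Irf5, Irf8, Stat3 and Stat6 lie left of 0 on the horizontal axis.

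The antiviral genes Rtp4 and Oasl2, picked as examples after their values were seen, had the order of Irf7. Rtp4 had 305 and 56 UMIs with PBS and 258, 92 and 70 UMIs with Sema3G. Oasl2 had 123 and 27 UMIs with PBS and 93, 40 and 39 UMIs with Sema3G. None of the 20 tested targets was called between the groups (0 in limma, edgeR and DESeq2, 1 at an unadjusted p under 0.05), and their median log2 fold change was -0.18 beside -0.22 for all genes. Of interferon RNAs themselves, Ifnb1, Ifna4 and Ifng had 0 UMIs in every library, which allows up to 1.67 CPM in the library with the fewest UMIs.

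Ordered by the mean over all libraries, Stat3 at 313 CPM and Irf8 at 302 CPM led, followed by Irf2 at 154, Irf7 at 148, Irf1 at 103, Stat6 at 82.3, Irf5 at 81.0, Irf9 at 73.1 and Stat2 at 25.0 CPM. This order held for the mean of all libraries and turned between the groups, since Irf8 averaged 289 CPM and Stat3 280 CPM with Sema3G, and Irf7 averaged 152 CPM and Irf2 137 CPM with PBS. Stat3 was above Irf8 in 4 of 5 libraries and Irf2 above Irf7 in 3 of 5. Of the neighbours in this order, Irf8 and Irf2, and Irf9 and Stat2, had ranges that did not overlap, and those of the other neighbours overlapped. The range of Irf7, up to 256 CPM, also reached into that of Stat3, which began at 241 CPM. All 9 were detected in every library, with 29 UMIs or more. The profiles of Stat3 and Irf5 over the 5 libraries were the most alike among the 9, with a root mean square difference of 0.10 on the log2 scale after centring each gene on its mean. Irf7 was the gene farthest from 7 of the other 8, and its own nearest gene was Stat2, at 0.44.

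**Figure D4:**
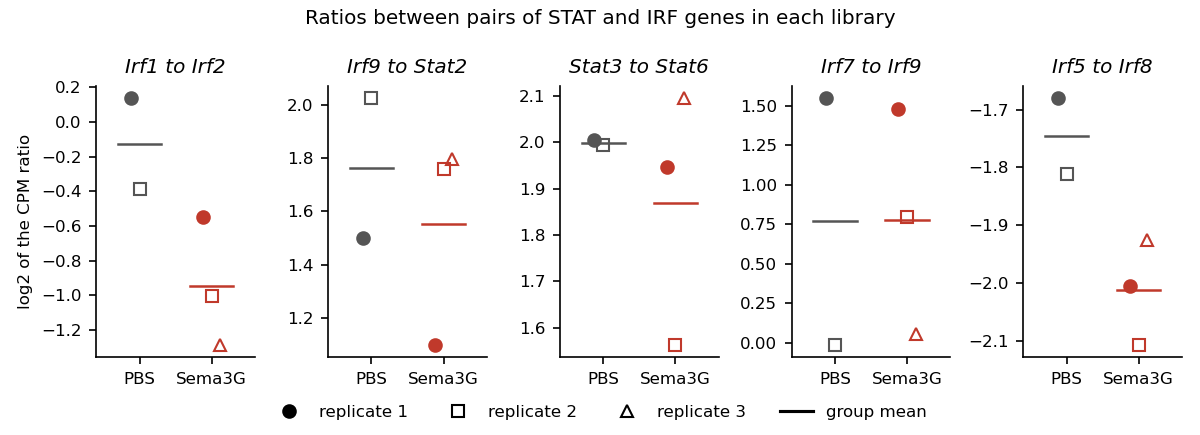
Log2 of the ratio of CPM between pairs of STAT and IRF genes in each library (vertical axes, which differ in range and do not start at 0), with the replicate number as the symbol and the group mean as a line. Irf1 to Irf2 and Irf5 to Irf8 are lower in all 3 Sema3G libraries, and the other 3 ratios overlap between the groups.

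Of the STAT and IRF genes outside the 9, Stat5b and Irf3 had levels near that of Stat2. Stat5b, which carries the signals of growth-factor-like cytokines such as GM-CSF, had 85 and 66 UMIs with PBS and 57, 70 and 61 UMIs with Sema3G, and a log2 fold change of -0.41 (limma adjusted p = 0.315, and -0.21 in edgeR). Stat4, Stat5a and Irf3 had log2 fold changes of 0.21, -0.16 and -0.34, and none was called. Irf4 had 1 UMI in the PBS group and 4 in the Sema3G group and was too low to test.

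Upstream of these factors lie the cytokine receptors and the JAK kinases. Of 12 tested receptor chains none was called by limma, with a median log2 fold change of -0.30. Il6ra, which binds IL-6, the activator of STAT3, was at 70.9 and 80.8 CPM with PBS and at 121, 113 and 119 CPM with Sema3G (log2 fold change 0.63, limma adjusted p = 0.0890, and 0.0240 from edgeR's quasi-likelihood test). Il10ra, the binding chain for IL-10, which also acts through STAT3, was at 96.1 and 91.0 CPM with PBS and at 62.8, 68.6 and 45.6 CPM with Sema3G (log2 fold change -0.68, limma adjusted p = 0.105, and -0.46 in edgeR). The groups did not overlap for either chain. Of the 12 chains, 5 had every Sema3G value below every PBS value (26.5% of all tested genes). Il6ra was the 1 chain with every value above (11.9%). The chains of the type I interferon receptor had log2 fold changes of -0.13 for Ifnar1 and 0.19 for Ifnar2. Among the 4 JAK kinases Jak1 had the most RNA, at 362 and 380 CPM with PBS and 339, 269 and 257 CPM with Sema3G (log2 fold change -0.37, limma adjusted p = 0.268, and -0.17 in edgeR), and Jak2, Jak3 and Tyk2 were not called. Of 11 ligands that act through STATs, 6 were at 0 in all libraries and Osm alone could be tested, with a log2 fold change of -0.30.

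Of the 13 adaptors and kinases that activate IRFs none was called, with a median log2 fold change of -0.27. Myd88, the adaptor through which Toll-like receptors reach IRF5, had the lowest unadjusted p of these. It was at 127 and 127 CPM with PBS and at 99.0, 82.1 and 77.0 CPM with Sema3G, lower in 3 of 3 libraries (log2 fold change -0.57, limma adjusted p = 0.122, and -0.37 in edgeR). Of the 13 genes, 3 had every Sema3G value below every PBS value (26.5% of all tested genes) and 0 had every value above (11.9%). Ikbke, a kinase of IRF3 and IRF7, was at 106 and 88.3 CPM with PBS and at 83.4, 71.3 and 53.5 CPM with Sema3G (log2 fold change -0.49, limma adjusted p = 0.203, and -0.28 in edgeR). Of 13 inhibitors of these pathways none was called, with a median of -0.22, equal to that of all genes to 2 decimals. Socs3, the feedback inhibitor induced by STAT3, had 772 and 563 UMIs with PBS and 458, 716 and 757 UMIs with Sema3G, and its groups overlapped.

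Downstream, none of the 8 tested STAT3 targets, 10 targets of IRF1 and interferon-γ or 5 tested STAT6 targets was called by limma. Of the 8 STAT3 targets, 4 had every Sema3G value below every PBS value (26.5% of all tested genes) and 1 had every value above (11.9%). The 4 were Il1rn, the interleukin-1 receptor antagonist, Sbno2, a corepressor induced by IL-10, Junb and Bcl3, with log2 fold changes of -0.58, -0.54, -0.50 and -0.26 (limma adjusted p = 0.189, 0.162, 0.144 and 0.416), and the other was Pim1, at 0.38 (limma adjusted p = 0.248). In edgeR, which scales by TMM factors, the log2 fold changes were -0.39, -0.34, -0.31 and -0.059 for these 4 and 0.60 for Pim1. The share higher in replicate 1 than in replicate 2 in both groups was 80% of the 10 IRF1 and interferon-γ targets, 25% of the 8 STAT3 targets and 60% of the 5 STAT6 targets, against 40.1% of all tested genes. The median log2 fold changes of these lists were -0.25, -0.29 and 0.51, beside -0.22 for all genes. Among the STAT6 targets, Arg1 was far lower in replicate 1 of both groups. It was at 262 and 1374 CPM with PBS and at 307, 1595 and 1776 CPM with Sema3G (log2 fold change 0.67, limma adjusted p = 0.520). Tap1, a peptide transporter controlled by IRF1, was at 72.5 and 55.1 CPM with PBS and at 53.4, 39.7 and 37.8 CPM with Sema3G (log2 fold change -0.54, limma adjusted p = 0.186, and -0.35 in edgeR). Gbp7 ran the other way, at 24.7 and 16.6 CPM with PBS and 38.4, 36.1 and 35.0 CPM with Sema3G (log2 fold change 0.82, limma adjusted p = 0.0930, and 0.0247 from edgeR's quasi-likelihood test).

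Among the 8 DNA-binding partners and coactivators, whose median log2 fold change was -0.32, the acetyltransferase genes Crebbp and Ep300, which serve STATs and IRFs alike, had log2 fold changes of 0.50 (limma adjusted p = 0.146, 0.0482 from edgeR's quasi-likelihood test) and 0.36 (limma adjusted p = 0.345). Crebbp was at 73.6 and 76.0 CPM with PBS and at 108, 98.8 and 113 CPM with Sema3G. Over the 12 pathway lists, 95 of 117 different genes were tested, 0 were called by limma (13 at an unadjusted p under 0.05), 3 by edgeR (Il6ra, Crebbp and Gbp7) and 1 by DESeq2 (Il6ra). These shares were near or below those of all genes given above. These 3 were named after their values were seen.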

How the data were processed

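RNA-seq libraries (QuantSeq 3′, with UMIs) were available from 2 PBS and 3 Sema3G samples. The authors mapped reads to mm10, counted UMIs with Strand NGS and normalized with edgeR (3.12 in the submitters' processing notes). Annotation, filters and strand setting were not given in the sources used here. Deposited values were CPM, with p-values, q-values and ranks of their own comparison, which were not used. Because CPM are not counts, log2(CPM + 1) of the 10088 genes averaging 1 CPM or more was fitted with limma (version 3.58.1 under R 4.3.3, trend option), and p-values were adjusted by the Benjamini-Hochberg method over all of them. Fold changes on this scale understate changes of low genes. All CPM values (100% within 0.01) fell on whole multiples of a library-specific step, giving UMI counts for edgeR (4.0.16) and DESeq2 (1.42.0). Listed genes held 1283029 to 1487137 UMIs per library, which limits rare RNAs, and intervals of counts cover counting error only. The chi-square per degree of freedom between UMI counts was 1.77 for Sema3G replicates 2 and 3, but 6.57 and 7.57 for replicate 1 against these, and 11.4 between the PBS libraries. All 5 libraries were kept. Ratios and sums were compared by exact two-sided permutation tests. Spans and exons came from GENCODE M21 (GRCm38), promoter sequences from RefSeq. The spans of Stat3, Stat6, Irf1, Irf2, Irf5 and Irf7 overlap genes of the other strand, from which reads cannot be told apart if strand was not used. The scripts were tested on simulated data. All 9 genes were named, with other STATs and IRFs, pathway genes past the adjusted p and the member nearest in profile; other pathway genes were named after their values were seen. The 9 genes and the lists were chosen with earlier results of these data known. The alternatives changed pseudocount, filter, scaling, test and replicate block, and left out each library. The counts of non-overlapping groups on listed genes without Rn45s and the comparison of replicates 1 and 2 were added after the data were seen. Some genes of the lists are not reported here.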

Additional observations from a re-analysis of the deposited data

How the results depend on the processing

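None of the 9 genes passed the adjusted p under any of the 14 alternatives run, and 107 of their 126 values kept their sign. Irf1, Irf5 and Stat3 were negative and Irf2 positive under all 14, with log2 fold changes between -0.77 and -0.25, -0.50 and -0.11, -0.48 and -0.09, and 0.22 and 0.56. The lowest limma adjusted p was 0.0645 for Irf1 and 0.0869 for Stat3, both without Sema3G replicate 1, 0.0765 for Irf7, with the replicate block, and 0.0917 for Irf2, on listed genes without Rn45s. The signs that turned were those of small or widely spread values. Scaling by TMM factors gave 0.068 for Irf8 and 0.20 for Irf9, and CPM on listed genes without Rn45s gave 0.039 for Stat6, 0.15 for Irf8, 0.29 for Irf9 and a difference of 149 CPM for the summed IRF genes. These scalings moved the median of all genes by 0.19 and 0.27. Irf8 and Irf9 were 0.048 and 0.21 with edgeR's quasi-likelihood test, and 0.056 and 0.22 with DESeq2. Irf9 was 0.00025 with a pseudocount of 5. With 1 library left out, Irf7 ranged from -0.95 without PBS replicate 2 to 0.97 without PBS replicate 1 and was -0.51 without Sema3G replicate 1. Stat2 ranged from -0.23 to 0.64 with the same PBS libraries left out and was -0.18 without Sema3G replicate 1. Irf8 ranged from -0.30 to 0.028 and Irf9 from -0.19 to 0.19. Among the log2 ratios, Irf1 to Irf2 kept its sign, as did Irf5 to Irf8, which ranged from -0.33 to -0.20. Irf9 to Stat2 ranged from -0.47 to 0.051, Stat3 to Stat6 from -0.24 to 0.022, and Irf7 to Irf9 from -0.77 to 0.79. Leaving out a PBS library leaves 1, whose spread is taken to equal that of the other group.

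The number of all genes called higher, 160, was 104 with no filter, 325 with TMM factors, 496 on listed genes without Rn45s, 301 with edgeR and 298 with the replicate block, and 27 to 270 with 1 library left out. The number called lower, 22, was 5 with a pseudocount of 0.1, 4 with no filter, 3 with TMM factors, 2 on listed genes without Rn45s, 3 with edgeR, 1 with DESeq2 and 275 with the replicate block, and 0 to 440 with 1 library left out. Calls ranged this widely when single libraries were dropped, 270 higher and 440 lower without Sema3G replicate 1 and 27 higher and 0 lower without Sema3G replicate 2. The replicate block pairs replicates 1 and 2 of the groups by number alone, with 1 residual degree of freedom. Over all tested genes the deviations of same-numbered libraries correlated at 0.17 and 0.11 across genes, which are not independent, and PBS 2 with Sema3G 3 at 0.097. With 2 PBS libraries, the deviations of 1 mirror those of the other, so these values are not separate evidence on pairing. With the block, Sema3G replicate 3 has no partner and drops out of the estimate, so that the log2 fold changes of the 9 genes (0.49 for Irf7, 0.44 for Stat2, 0.12 for Irf9) equal those without Sema3G replicate 3. The cause of the other changes was not tested.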

Other observations

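Irf2bp2, a corepressor that binds IRF2, lay outside the lists and was looked at after the values of Irf2 were seen. It was at 148 and 167 CPM with PBS and at 203, 204 and 260 CPM with Sema3G. Like Irf2 it was higher in 3 of 3 Sema3G libraries than in both PBS libraries, as were 11.9% of all tested genes. The log2 fold change was 0.49 (standard error 0.19, adjusted p = 0.161 from limma, 0.0777 from edgeR's quasi-likelihood test), and a link to Irf2 was not tested.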
